A study of Mus musculus with 32 samples.

Results

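Aminoacyl-tRNA synthetases are the enzymes that attach each amino acid to its tRNA, the step that supplies charged tRNA to the ribosome. Their 36 mouse genes were followed here in brain tumors of 2 transgenic models, and are the rows of the count table whose Ensembl identifiers map to the synthetase symbols. All 36 were among the 37310 rows of the table, 20 for the cytosolic enzymes and 16 for the mitochondrial ones. The comparison asks whether tumors driven by MYC and tumors driven by MYCN differ in the RNA of these genes.

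RNA had been sequenced from fresh-frozen biopsies of 6 GMYC and 8 GTML brain tumors. GMYC mice, kept on the FVB/N strain, carry a tetracycline transactivator (tTA) under the promoter of the astroglial glutamate transporter Glt1, and human MYC under the tetracycline-responsive element (Glt1-tTA/TRE-MYC). GTML mice direct MYCN from the same promoter, and the study's methods name FVB/N as the background of all its transgenic crosses. In both models the oncogene is on without doxycycline, so the tumors share the driver and differ in the oncogene. The labels give no age or sex, and no normal brain was part of the comparison. The study's methods describe most GTML tumors as sequenced for earlier work. The labels give no time of sequencing for any tumor, so its part cannot be told apart from that of the model. The study also set aside a GTML tumor with an SHH-like profile in its differential expression, and the labels do not say which tumor that was, so all GTML tumors are kept here.

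Most amino acids have a cytosolic enzyme and a separate mitochondrial enzyme, both encoded in the nucleus, while Gars and Kars serve both compartments and Eprs joins the glutamate and proline enzymes in a single protein. Glutamine has no mitochondrial enzyme of its own, since mitochondria first load its tRNA with glutamate and then amidate it. Several cytosolic enzymes (those for arginine, aspartate, glutamate and proline, glutamine, isoleucine, leucine, lysine and methionine) sit in the multisynthetase complex with 3 scaffold proteins. MYC proteins bind E-box sequences and are known for raising the genes of protein synthesis, and ATF4, the transcription factor of the amino acid response, switches on many cytosolic synthetase genes through C/EBP-ATF response elements.

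The start regions of 4 cytosolic genes are shown because they hold, or lack, the letters that these factors are known to read. Each window runs from 250 bases before to 50 bases after the RefSeq start, is 300 bases long, is written 5′ to 3′ on the strand of the gene, and comes from the RefSeq table of GRCm38.p6, a later build than the mm9 build behind the counts. Capitals mark the E-box CACGTG, which reads the same on both strands, and the C/EBP-ATF response element TGATGNAA, whose other strand reads TTNCATCA. The windows are those of the threonine gene Tars (chr15:11399609-11399908, minus strand), the isoleucine gene Iars (chr13:49681880-49682179, plus strand), the alanine gene Aars (chr8:111033592-111033891, plus strand) and the glutamine gene Qars (chr9:108507755-108508054, plus strand).
Tars: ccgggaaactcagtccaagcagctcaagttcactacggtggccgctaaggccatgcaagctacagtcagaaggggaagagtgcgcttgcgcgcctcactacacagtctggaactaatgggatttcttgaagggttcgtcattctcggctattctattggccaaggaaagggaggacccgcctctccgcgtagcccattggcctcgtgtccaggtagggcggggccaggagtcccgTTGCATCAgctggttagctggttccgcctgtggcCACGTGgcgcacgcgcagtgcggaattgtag
Iars: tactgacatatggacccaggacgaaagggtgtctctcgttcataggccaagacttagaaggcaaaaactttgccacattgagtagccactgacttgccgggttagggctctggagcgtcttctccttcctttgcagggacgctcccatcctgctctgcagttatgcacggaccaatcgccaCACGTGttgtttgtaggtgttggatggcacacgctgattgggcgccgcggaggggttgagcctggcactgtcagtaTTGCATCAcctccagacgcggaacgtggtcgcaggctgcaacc
Aars: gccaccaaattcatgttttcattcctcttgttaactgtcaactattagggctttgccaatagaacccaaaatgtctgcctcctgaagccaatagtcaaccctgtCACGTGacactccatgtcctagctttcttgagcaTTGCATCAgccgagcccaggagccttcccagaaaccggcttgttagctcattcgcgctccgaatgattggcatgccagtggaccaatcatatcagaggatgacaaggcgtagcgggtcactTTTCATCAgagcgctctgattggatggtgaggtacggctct
Qars: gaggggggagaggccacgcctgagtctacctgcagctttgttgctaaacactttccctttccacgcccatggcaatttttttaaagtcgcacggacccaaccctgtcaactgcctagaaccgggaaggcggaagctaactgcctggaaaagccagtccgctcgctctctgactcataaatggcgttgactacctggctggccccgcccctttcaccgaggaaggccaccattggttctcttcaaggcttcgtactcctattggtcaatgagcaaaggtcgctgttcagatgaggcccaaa

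Tars held the response element from base 236 of its window and the E-box from base 270. Iars held the E-box from base 182 and the response element from base 258. Aars held the E-box from base 105 and the response element from bases 139 and 260. Qars held neither in this window, which says only that these letters are not there. Of the 36 members, 27 had a window in the table, and Cars, Hars, Hars2, Lars, Nars, Pars2, Rars, Vars and Wars had none. The response element was found in 5 of 13 cytosolic members with a window (Aars, Gars, Iars, Tars and Yars) and 0 of 14 mitochondrial members, against 3.97% of the 32851 windows of all genes. The E-box was found in 4 cytosolic members (Aars, Farsb, Iars and Tars) and 1 mitochondrial member (Ears2), against 7.15% of all windows. Both motifs stood together in Aars, Iars and Tars and in 0.201% of all windows.

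The mouse rows of the driver genes followed the labels. GMYC mice carry human MYC and the reads were aligned to the mouse genome. How much of these rows stems from the transgenes was not tested. Mouse Myc ranged from 33.4 to 166 CPM (counts scaled to library size) in GMYC tumors and from 2.60 to 8.68 in GTML tumors, and Mycn ranged from 7.65 to 34.4 in GMYC and from 119 to 191 in GTML tumors. Total counts ran from 6218378 to 7279811 in GMYC and from 4602294 to 6317404 in GTML tumors. Otx2, Crx and Syp, markers of these medulloblastoma-like tumors, were present in every tumor, but GTML 2 stood apart with 97.6 CPM of Crx against 298 to 429 in the other tumors and 176 CPM of Npr3 against at most 67.4. Markers of other cells also differed. Summed CPM of the 5 erythrocyte markers tested ran from 53.4 to 176 in GMYC and from 41.6 to 134 in GTML tumors. By the test 4 of the 5 were higher in GMYC tumors. Their differences were larger than the sums show: the 5 log2 fold changes (GTML over GMYC) ran from -2.55 to 0.51, with a median of -2.14. The sum over the 8 proliferation markers ran from 1640 to 3050 in GMYC and from 1620 to 2160 in GTML tumors. Of these, Pcna, Ccnb1 and Cdk1 (37.5%) were higher in GMYC tumors by the test. All 8 proliferation genes had a log2 fold change (GTML over GMYC) below 0, with a median of -0.38. Of the other marker lists, Tubb3 of 5 tumor and neuronal genes and Cbln3 of 4 tested cerebellar neuron genes were higher in GMYC tumors, Mog of 5 oligodendrocyte genes and Kdr of 4 endothelial genes were higher in GTML tumors, and 0 of 6 microglial, 0 of 4 astrocyte and 0 of 6 interferon genes passed. All 4 astrocyte genes had a log2 fold change (GTML over GMYC) below 0, with a median of -0.88, and their summed CPM ran from 32.2 to 367 (median 200) in GMYC and from 22.3 to 211 (median 74.3) in GTML tumors. Summed CPM also overlapped between the models in the lists with a called gene, with 13.9 to 163 in GMYC and 14.5 to 35.4 in GTML tumors for the cerebellar neuron genes, 110 to 288 and 107 to 300 for the oligodendrocyte genes, and 48.9 to 138 and 83.9 to 211 for the endothelial genes. Gabra6, a granule neuron gene, was below the filter. Small nucleolar RNAs took 0.366% to 0.438% of the counts in GMYC 1 to 4 and GTML 1 and 2 and 0.151% to 0.272% in the other 8 tumors, a split that is not a label of the study. The tumors with the higher share are also the first in the sample order of the series, and both models are found among them and among the rest. The labels name no batch. The part of these features in the results below was tested only where a fit for it is given.

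By the sign of the fold change, 18 of 20 cytosolic synthetase genes were lower in GTML than in GMYC tumors, 8 of them by the test. The mitochondrial genes went both ways. Of the 36 members, all above the filter on low counts, 10 were higher in GMYC tumors and 1 was higher in GTML tumors at an adjusted p under 0.05 (edgeR's quasi-likelihood test, Benjamini-Hochberg over the 21024 genes tested, which also gives the adjusted p values below unless another fit is named). That is 27.8% and 2.78% of the members, beside 21.2% of all genes called, 9.71% higher in GMYC and 11.5% higher in GTML tumors, and beside 10.9% and 8.53% of the 7713 protein-coding genes whose mean CPM was at or above that of the lowest member (36.7). The 10 genes higher in GMYC tumors were Qars, Lars, Hars, Mars, Nars, Iars, Cars and Tars of the cytosolic set (8 of 20, 40%) and Sars2 and Nars2 of the mitochondrial set (2 of 16, 12.5%). The gene higher in GTML tumors was Cars2. In biopsies, fewer cells of a type and less RNA per cell cannot be told apart.

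The median log2 fold change (GTML over GMYC) was -0.27 over the 20 cytosolic genes and -0.04 over the 16 mitochondrial genes, beside 0.04 over all genes tested and 0.06 over protein-coding genes. A value below 0 was found for 18 of 20 cytosolic genes, the exceptions being Aars (0.11) and Vars (0.12), and for 8 of 16 mitochondrial genes. The changes were small. Where more than a 2-fold change at an adjusted p below 0.01 was asked, 0 members passed in edgeR, as against 3.22% of all genes. An unadjusted p under 0.05 was found for 16 members. The share of all genes at that level was not counted, but it is at least the 21.2% called after adjustment. With DESeq2, 10 members were higher in GMYC and 2 in GTML tumors (12.1% and 15.7% of all genes), and with limma-voom 10 and 1 (11.4% and 9.99%). Without GMYC 3, 6 members were higher in GMYC and 1 in GTML tumors, beside 5.65% and 6.84% of all genes.

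**Figure D1:**
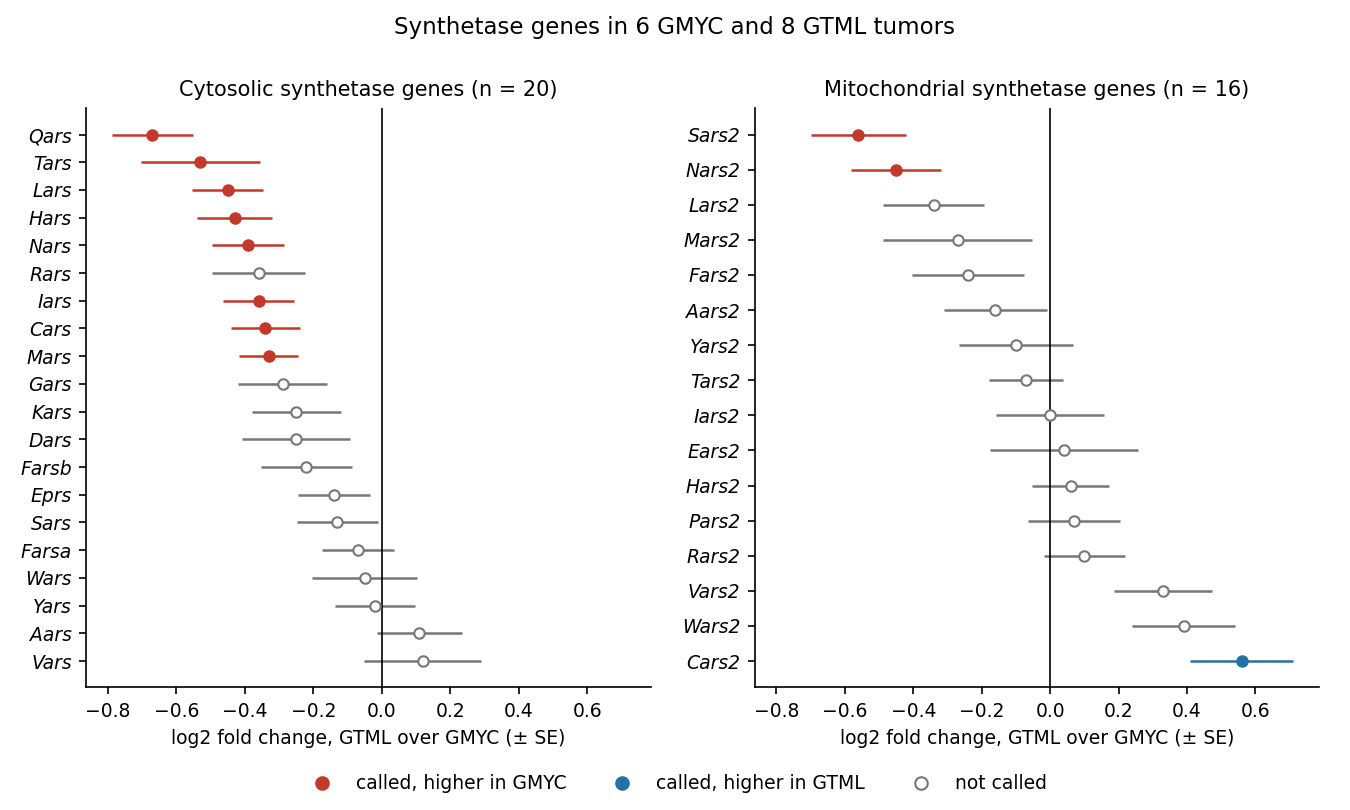
Log2 fold change of each synthetase gene, GTML over GMYC tumors, with its standard error, for the 20 cytosolic genes (left) and the 16 mitochondrial genes (right); filled points passed an adjusted p of 0.05. The cytosolic points run from -0.67 (Qars) to 0.12 (Vars), 18 of them left of 0, while the mitochondrial points run from -0.56 (Sars2) to 0.56 (Cars2).

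Qars (ENSMUSG00000032604), which charges glutamine tRNA in the cytosol and belongs to the multisynthetase complex, had the smallest p of all members. Its level was 153 CPM at the lowest, 191 at the median and 224 at the highest in GMYC tumors, and 92.1, 117 and 152 in GTML tumors. The models did not overlap, although the highest GTML tumor (GTML 1) came within 1 CPM of the lowest GMYC tumor (GMYC 2). Qars was 1.59-fold higher in GMYC tumors (log2 fold change -0.67 ± 0.118 SE, adjusted p = 0.00355), and it passed in each of the 14 fits that left out 1 tumor. Groups without overlap were found for 2 members, Qars and Mars, with GTML below GMYC, beside 1.62% of protein-coding genes, and for 0 members in the other direction, beside 2.26%.

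Other genes of the complex moved the same way. Lars (ENSMUSG00000024493), the leucine enzyme, which also serves the cell as a leucine sensor for mTORC1, had 267, 305 and 361 CPM (lowest, median and highest) in GMYC tumors and 179, 224 and 268 in GTML tumors. GTML 2 was highest of its model and reached the range of the GMYC tumors with GTML 4, and the other 6 GTML tumors lay below it. Lars was 1.37-fold higher in GMYC tumors (log2 -0.45 ± 0.103, adjusted p = 0.0101). Mars (ENSMUSG00000040354), the methionine enzyme, had 157, 169 and 196 CPM in GMYC and 124, 138 and 153 CPM in GTML tumors, so that all 8 GTML tumors lay below the lowest GMYC tumor. The difference was small, 1.26-fold higher in GMYC tumors (log2 -0.33 ± 0.0864, adjusted p = 0.0167), and 1.99% of the Mars exon bases also belong to Ddit3. Iars (ENSMUSG00000037851), the isoleucine enzyme, had 198, 254 and 288 CPM in GMYC and 165, 189 and 240 CPM in GTML tumors. GMYC 6 was the low tumor of its model and overlapped GTML 1, 2 and 7. Iars was 1.28-fold higher in GMYC tumors (log2 -0.36 ± 0.104, adjusted p = 0.0249), and without GMYC 3, the highest tumor, its adjusted p was 0.0673.

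In the complex as a whole, 4 of 8 genes (Iars, Lars, Mars and Qars) were higher in GMYC and 0 in GTML tumors, all 8 had a log2 fold change below 0, and their median was -0.34. The members of the complex that did not pass were Rars (-0.36, adjusted p = 0.0692), Kars (-0.25, adjusted p = 0.172), Dars (-0.25, adjusted p = 0.259) and Eprs (-0.14, adjusted p = 0.348). Of the 12 cytosolic genes outside the complex, 4 passed (33.3%), with a median of -0.18. A difference between the genes in and outside the complex was not tested.

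Outside the complex, Hars (ENSMUSG00000001380), the histidine enzyme, had 119, 140 and 151 CPM in GMYC and 87.7, 98.2 and 140 CPM in GTML tumors. GTML 4 alone reached into the GMYC range, and the other 7 GTML tumors lay below it. Hars was 1.35-fold higher in GMYC tumors (log2 -0.43 ± 0.110, adjusted p = 0.0147), and 7.97% of its exon bases overlap those of its neighbor Hars2. Nars (ENSMUSG00000024587), the asparagine enzyme, had 181, 213 and 237 CPM in GMYC and 130, 160 and 208 CPM in GTML tumors, with GTML 4 again the highest and 6 of 8 GTML tumors below every GMYC tumor. Nars was 1.31-fold higher in GMYC tumors (log2 -0.39 ± 0.105, adjusted p = 0.0180). Cars (ENSMUSG00000010755), the cysteine enzyme, had 112, 140 and 165 CPM in GMYC and 96.5, 107 and 123 CPM in GTML tumors. Its GTML tumors were close together and 5 of 8 lay below the lowest GMYC tumor. Cars was 1.27-fold higher in GMYC tumors (log2 -0.34 ± 0.1, adjusted p = 0.0262), a call that was lost without GMYC 3, GMYC 5 or GMYC 6 (adjusted p up to 0.0679).

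Tars (ENSMUSG00000022241), the threonine enzyme, was the last of the cytosolic genes to pass. It ranged from 142 to 258 CPM in GMYC tumors and from 95.1 to 192 in GTML tumors. The high tumors were GMYC 5 and GMYC 3 in the first model and GTML 2 and GTML 4 in the second. Tars was 1.44-fold higher in GMYC tumors (log2 -0.53 ± 0.174, adjusted p = 0.0412), and it passed in 5 of the 14 fits without 1 tumor, with an adjusted p of up to 0.109. Without GTML 2 the log2 fold change was -0.64 (adjusted p = 0.00871).

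Among the mitochondrial enzymes, Sars2 (ENSMUSG00000070699), which charges serine tRNA, had 41.8, 52.9 and 60.4 CPM in GMYC and 24.2, 37.1 and 43.8 CPM in GTML tumors. GTML 2 was the lowest of its model, and 7 of 8 GTML tumors lay below the lowest GMYC tumor. Sars2 was 1.47-fold higher in GMYC tumors (log2 -0.56 ± 0.140, adjusted p = 0.0140), and its cytosolic partner Sars, at -0.13, had an adjusted p of 0.419. Nars2 (ENSMUSG00000018995), for asparagine, had 39.2, 53.6 and 63.8 CPM in GMYC and 34.5, 37.7 and 48.6 CPM in GTML tumors. GMYC 6 lay among the GTML tumors and the other 5 GMYC tumors lay above all of them. Nars2 was 1.37-fold higher in GMYC tumors (log2 -0.45 ± 0.132, adjusted p = 0.0265). Without GMYC 1, GMYC 3, GMYC 5 or GTML 5 its call was lost, with an adjusted p of up to 0.0719.

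Cars2 (ENSMUSG00000056228), the mitochondrial cysteine enzyme, went the other way. Its level was 26.4, 36.3 and 47.3 CPM in GMYC and 42.3, 52.7 and 63.2 CPM in GTML tumors, and 6 of 8 GTML tumors lay above the highest GMYC tumor (GMYC 2). Cars2 was 1.48-fold higher in GTML tumors (log2 0.56 ± 0.151, adjusted p = 0.0185), and it passed in all 14 fits without 1 tumor. Of its exon bases, 5.83% overlap the neighboring gene Naxd. Wars2 (0.39, adjusted p = 0.0698) and Vars2 (0.33, adjusted p = 0.0979), the mitochondrial tryptophan and valine enzymes, came next in the same direction and did not pass.

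**Figure D2:**
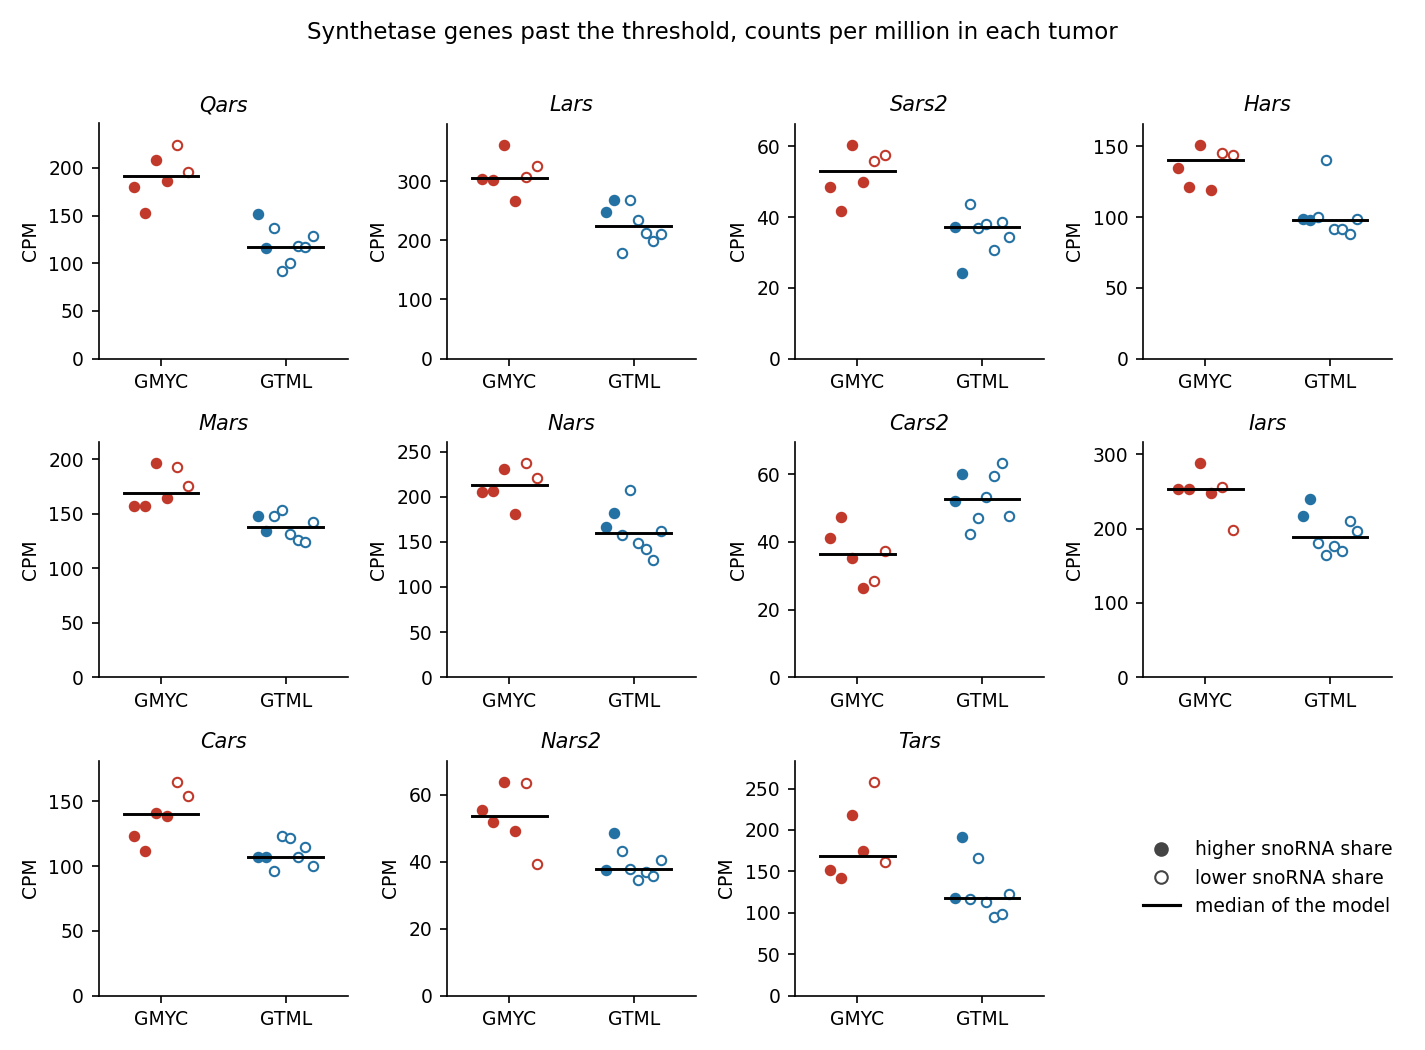
CPM of the 11 synthetase genes past the threshold in each of 6 GMYC and 8 GTML tumors; filled and open points are tumors on the higher and the lower side of the small nucleolar RNA split, and black lines are medians. For Qars and Mars every GTML point lies below every GMYC point, and for Cars2 6 of 8 GTML points lie above the highest GMYC point of 47.3 CPM.

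Calls fell in both the known ATF4 targets and the other cytosolic genes. Of the 12 ATF4 targets, 6 were higher in GMYC tumors (Cars, Iars, Lars, Mars, Nars and Tars), with a median log2 fold change of -0.31, and of the other 8 cytosolic genes Hars and Qars were, with a median of -0.25. Of the 3 genes whose windows carry both motifs, Iars and Tars passed, with the values above, and Aars did not. Aars had 219, 258 and 293 CPM in GMYC and 217, 266 and 372 CPM in GTML tumors (log2 0.11 ± 0.124, adjusted p = 0.523). By enzyme class, 5 of 10 class I cytosolic genes and 3 of 10 class II cytosolic genes were higher in GMYC tumors.

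Per length of the principal transcript, the median of the cytosolic genes lay above that of the mitochondrial genes in both models, though single genes overlapped. In GMYC tumors the mean level ran from 43.1 CPM per kb (Cars) to 126 (Eprs) over the cytosolic genes, with a median of 66.7, and from 6.47 (Mars2) to 56.5 (Tars2) over the mitochondrial genes, with a median of 22.7. In GTML tumors the cytosolic genes ran from 31.9 (Tars) to 114 (Eprs), with a median of 54.8, and the mitochondrial genes from 5.35 (Mars2) to 53.7 (Tars2), with a median of 21.0. Tars2 lay above 7 cytosolic genes in GMYC and 9 in GTML tumors. Eprs, the enzyme for 2 amino acids, and Kars, which serves both compartments, were the top cytosolic genes in each model. Farsa and Farsb, the subunits of the cytosolic phenylalanine enzyme, had a ratio of 1.19 to 1.83 (median 1.39) in GMYC and 1.32 to 1.95 (median 1.6) in GTML tumors, so their ranges overlapped.

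The cytosolic gene was set over the mitochondrial gene, per length, for each of the 16 pairs of enzymes for the same amino acid. The ratio compares RNA levels in a tumor and does not measure the enzymes or the charged tRNA. Cars over Cars2 was 1.4 to 3.45 (median 2.4) in GMYC tumors and 1.05 to 1.54 (median 1.22) in GTML tumors, 7 of 8 of them below the lowest GMYC tumor. Hars over Hars2 was 2.97 to 4.17 (median 3.24) in GMYC and 1.89 to 3.61 (median 2.37) in GTML tumors, again with 7 of 8 below. The ratio ran towards the cytosolic gene in GTML tumors for Sars over Sars2, with medians of 1.86 and 2.45. Tars was the exception by this measure: its level per length of the principal transcript was below that of Tars2 in every tumor. The ratios were 0.664 to 0.953 in GMYC and 0.413 to 0.844 in GTML tumors. That order rests on the length used. The principal transcripts have 4005 bases (Tars) and 2400 bases (Tars2), while all annotated exons cover 5901 and 6932 bases. Without scaling by length, median CPM of Tars and Tars2 was 168 and 132 in GMYC and 118 and 133 in GTML tumors. In all 16 pairs the ranges of the models overlapped, and the ratios were not tested.

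**Figure D3:**
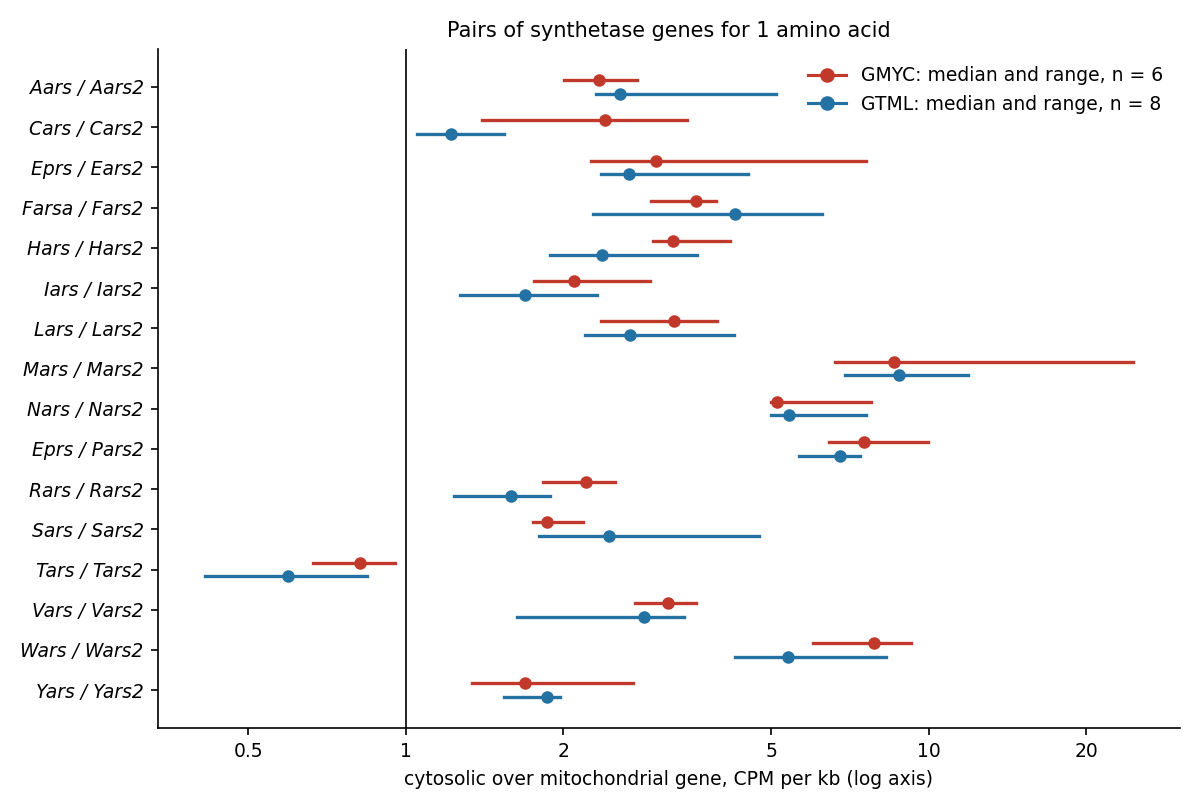
Ratio of the cytosolic to the mitochondrial gene in CPM per kb (log axis) for 16 pairs of synthetases, with the median and range over 6 GMYC and 8 GTML tumors. By principal transcript length, Tars over Tars2 lies below 1 in every tumor. Cars over Cars2 drops from a median of 2.4 in GMYC to 1.22 in GTML tumors.

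Tumors differed among themselves in the cytosolic set as a whole. The mean log2 CPM over the 20 cytosolic genes ran from 7.47 (GMYC 4) to 7.78 (GMYC 5) in GMYC and from 7.09 (GTML 6) to 7.64 (GTML 2) in GTML tumors. GMYC 5 was the highest of its model for 11 of the 20 genes and GMYC 3 for 9, and GTML 2 was the highest of its model for 12, GTML 4 for 5 and GTML 1 for 3. The cytosolic genes took 0.386% to 0.475% of the counts in GMYC and 0.307% to 0.427% in GTML tumors. Over the 16 mitochondrial genes the mean ran from 5.71 (GMYC 6) to 6.17 (GMYC 5) and from 5.76 (GTML 6) to 6.06 (GTML 2), ranges that largely coincide. GMYC 6 had the lowest level of its model for 8 of the 16 mitochondrial genes, with 29.0 CPM of Ears2 and 27.4 of Mars2.

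The synthetases were also compared on each side of the small nucleolar RNA split, and a difference between the sides was not shown for any member. On the higher side (6 tumors, 4 GMYC and 2 GTML) the median log2 fold change of the cytosolic genes was -0.03 with 0 members called. There 2 genes of 18921 were called in all (0.0106%), so that few calls of any kind were made. An unadjusted p under 0.05 was found there for 6 members, and the share of all genes at that level was not counted. On the lower side (8 tumors, 2 GMYC and 6 GTML) the median was -0.43, and 5 members were higher in GMYC tumors (Cars, Lars, Lars2, Qars and Tars), with 6.69% of all genes higher in GMYC and 6.66% higher in GTML tumors. A log2 fold change below 0 was found for 10 of 20 cytosolic genes on the higher side and for 19 of 20 on the lower side. With a term for the split in the fit of all 14 tumors, 8 members were higher in GMYC (Cars, Hars, Lars, Lars2, Mars, Nars, Qars and Sars2) and 2 in GTML tumors (Cars2 and Wars2), beside 6.77% and 6.79% of all genes, and the cytosolic median was -0.21. The interaction of model and split, added after the data were seen, called 0 members and 0 of 21024 genes in edgeR (0.0%), the tool used for it. Without adjustment 6 members had a p under 0.05 (Aars, Farsa, Gars, Kars, Sars and Wars), as did 3180 of all genes (16.7% and 15.1%). All 20 cytosolic values pointed to a lower GTML level, relative to GMYC, on the side with the lower share. Their median was -0.39, beside 0.06 over all genes. The 20 values come from the same 14 tumors, with 2 GTML tumors on the higher side and 2 GMYC tumors on the lower, so they are not separate results.

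**Figure D4:**
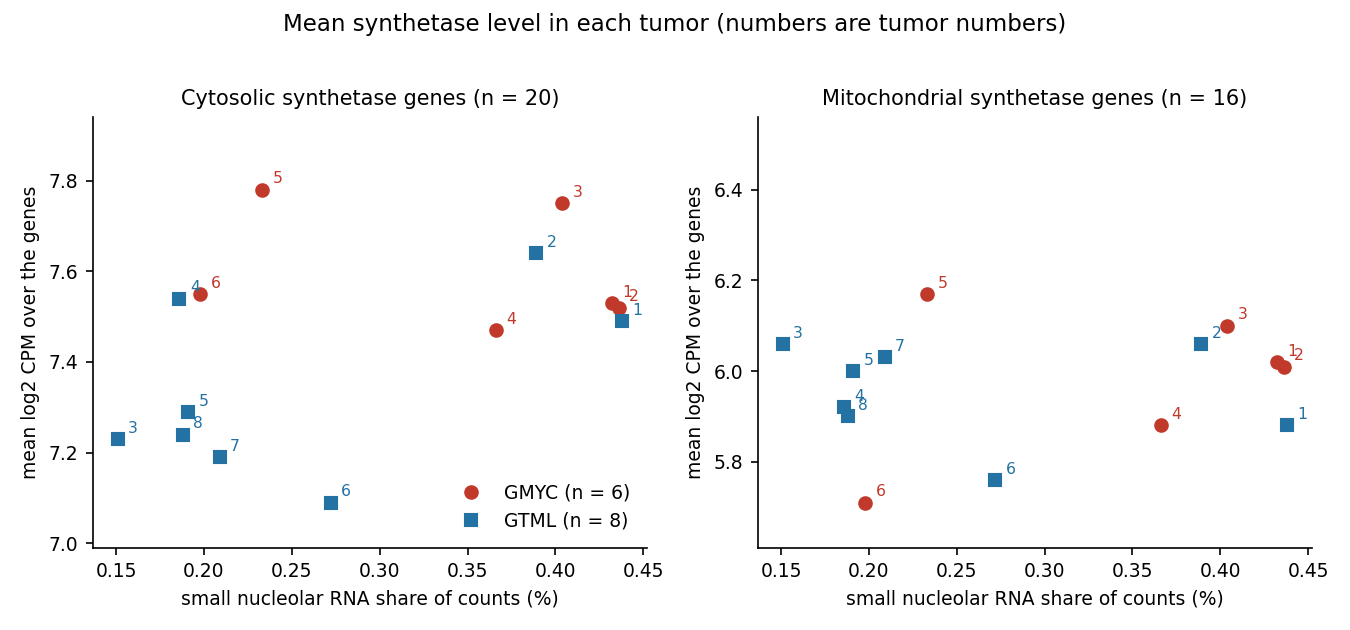
Mean log2 CPM over the cytosolic (left) and mitochondrial (right) synthetase genes in each tumor against the share of counts from small nucleolar RNAs, with tumor numbers beside the points. The 5 lowest cytosolic means, 7.09 to 7.29, are those of GTML 3 and 5 to 8, all with the lower share, while GTML 1, 2 and 4 lie between 7.49 and 7.64, within the GMYC range.

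GTML 2 and the presence of Y-linked counts also touched the counts of calls. Without GTML 2, 13 members were higher in GMYC and 1 in GTML tumors, the added genes being Gars, Kars and Rars, beside 15.1% and 15.6% of all genes. Y-linked genes were counted in all GMYC tumors and in 4 of 8 GTML tumors, and with a covariate for them Qars and Nars2 remained higher in GMYC tumors and Cars2 in GTML tumors, beside 3.62% and 6.14% of all genes. Qars kept a log2 fold change of -0.67 in that fit (adjusted p = 0.0186). The cytosolic median was -0.30 there, and the fold changes of genes whose calls were lost stayed near those without the covariate, as for Lars (-0.42, adjusted p = 0.0523) and Tars (-0.63, adjusted p = 0.0718).

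Around the synthetases, the scaffold Eef1e1 of the multisynthetase complex (AIMP3) had 56.7, 78.3 and 93.8 CPM in GMYC and 30.0, 46.6 and 61.0 CPM in GTML tumors. The models overlapped by a single GTML tumor, GTML 2. Eef1e1 was lower in GTML tumors (log2 -0.81 ± 0.173, adjusted p = 0.00783), a larger difference than that of any synthetase. The other scaffolds, Aimp1 (-0.33, adjusted p = 0.133) and Aimp2 (0.02, adjusted p = 0.96), did not pass, and the sign of Aimp2 changed with several settings. Of 5 helpers of mitochondrial charging, 0 passed by edgeR and 0 had an unadjusted p under 0.05; those with the smallest p were Trnt1, which adds the CCA end to tRNA (-0.29), Gatb, a subunit of the amidotransferase that makes glutamine tRNA (-0.22), and Mtfmt, which formylates initiator tRNA (-0.19). Of 6 genes of tRNA editing and selenocysteine tRNA, Sepsecs, which completes selenocysteine on its tRNA, was lower in GTML tumors (-0.42, adjusted p = 0.0287), while Aarsd1 (-0.26) and Dtd1 (-0.28) did not pass.

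Of 9 genes of the integrated stress response, 1 was higher in GMYC and 1 in GTML tumors (11.1% each, beside 9.71% and 11.5% of all genes), both of them kinases. Eif2ak4 (GCN2), the kinase that binds uncharged tRNA, had 59.7, 70.0 and 113 CPM in GMYC and 107, 120 and 138 CPM in GTML tumors. It was higher in GTML tumors (log2 0.65 ± 0.137, adjusted p = 0.00715), with 6 of 8 above the highest GMYC tumor. Eif2ak3 (PERK), the kinase of the endoplasmic reticulum, was lower in GTML tumors (-0.43 ± 0.148, adjusted p = 0.0477), though its call was lost in 11 of the 14 fits without 1 tumor, with limma-voom (adjusted p = 0.0529) and with the covariate for Y-linked counts (adjusted p = 0.118). Atf4 itself ranged from 134 to 183 CPM in GMYC and from 105 to 153 in GTML tumors (-0.26, adjusted p = 0.0958). Of 21 other ATF4 targets, 4 were lower in GTML tumors (Psat1, Mthfd2, Asns and Slc3a2) and 0 were higher, with a median log2 fold change of -0.18. The shares were 19.0% and 0.0%, beside 9.71% and 11.5% of all genes. Without GTML 2, 6 were lower and 2 higher (Ddit3 and Vldlr), beside 15.1% and 15.6% of all genes. Atf4 was also called lower in GTML tumors in that fit. With DESeq2, 5 were lower and 1 higher (Atf5), beside 12.1% and 15.7%. Psat1, of serine synthesis, was at -0.59 (adjusted p = 0.00570), Mthfd2, of mitochondrial folate metabolism, at -0.61 (adjusted p = 0.0159), and Asns, which makes asparagine, at -0.64 (adjusted p = 0.0164). For RNA polymerase III, which transcribes the tRNA genes, 2 of 20 subunit and factor genes tested (10%, beside 9.71% of all genes) were lower in GTML tumors, Polr3k (-0.39, adjusted p = 0.0126) and Polr3g (-1.07, adjusted p = 0.0337), and Crcp was at -0.40 (adjusted p = 0.0601). The median of that list was -0.02.

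**Figure D5:**
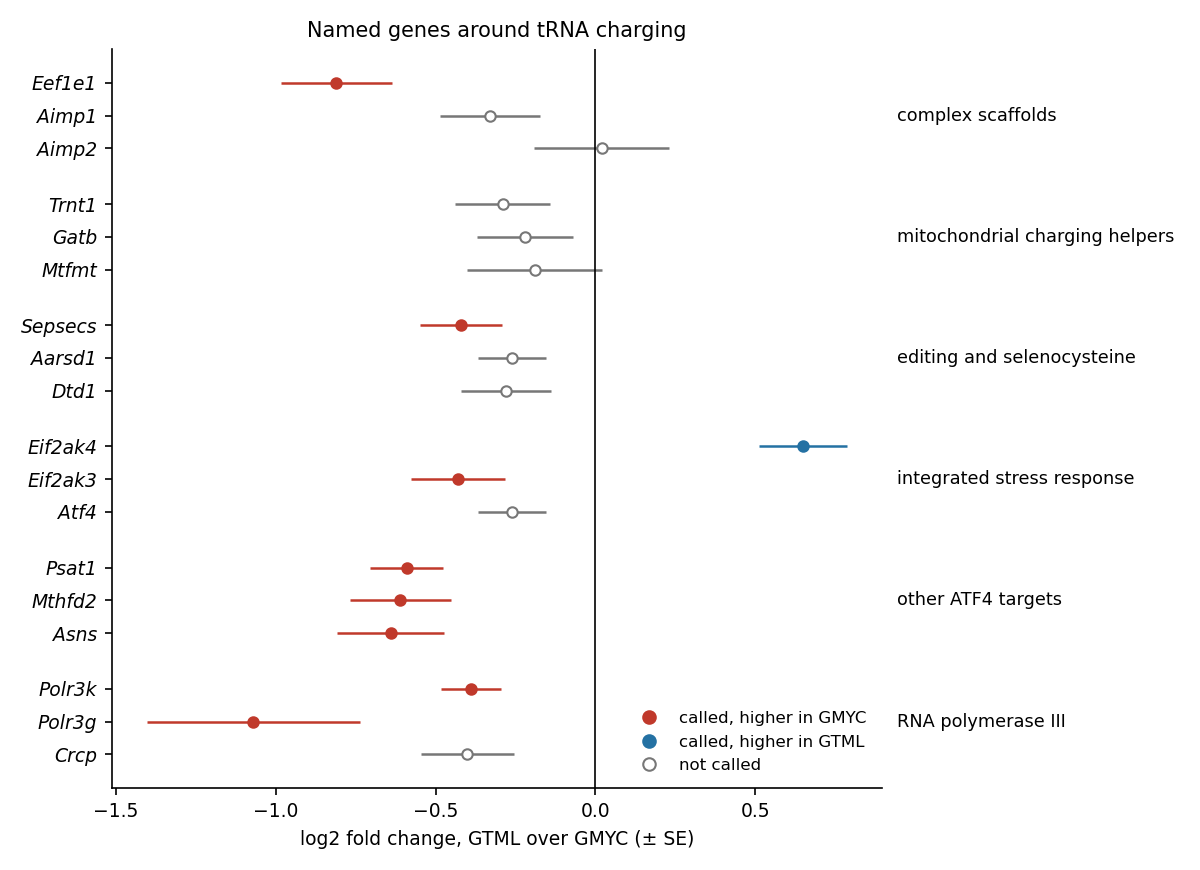
Log2 fold change, GTML over GMYC, with its standard error for the 3 genes with the smallest p of each list around tRNA charging; filled points passed an adjusted p of 0.05. Eif2ak4 (0.65) is the only filled point right of 0 among the 18 genes, and Polr3g (-1.07) and Eef1e1 (-0.81) lie farthest left.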

How the data were processed

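Total RNA of 14 tumor biopsies was sequenced on Ion Torrent by the authors, who deposited raw counts per gene. Per the labels, the submitters' processing notes name STAR 2.4.0, Bowtie2 2.2, Subread 1.5.2 and mm9. How duplicates and strand were handled is not given in the sources used here, so reads of overlapping genes cannot be told apart: 13 of the 36 synthetase genes share exon bases with another gene. Another 18 columns of the table match no label and were not used. Rows were named through their Ensembl identifiers (32620 of 37310 matched, 87.4%).

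A gene entered the tests (21024 did) if at least 3 tumors had CPM over 1. Models were compared with edgeR 4.0.16 (TMM, quasi-likelihood test, Benjamini-Hochberg over all genes, R 4.3.3), with DESeq2 1.42.0 and limma 3.58.1 as alternatives. The script was tested on simulated data with genes of all levels. It called 29 of 100 genes changed 2-fold and 71 of 100 changed 4-fold, so a gene that did not pass is not shown to be equal. P-values measure the spread between tumors. CPM per kb used the principal transcript of GENCODE vM21. The members and lists were chosen with earlier results of these data known. Genes with values in the text were the members past the threshold, up to 10 with the smallest p, with Tars, the next, in brief, and the 3 genes with the smallest p of each other list. Others were named after their values were seen. No tumors of a model were copies (chi-square per degree of freedom 5.67 or more). The depth sets the counting error: the called genes had 149 to 2361 counts per tumor.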

Additional observations from a re-analysis of the deposited data

Results flagged for a closer look

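Of 76 groups of tumors examined (each synthetase and 2 set means in each model), 7 held a tumor set apart from the others of its model, where chance gives about 1 in 20, or 3.8. Gars had 259 CPM in GMYC 3, the next GMYC tumor having 223. Farsb had 73.1 CPM in GTML 6, the next lowest GTML tumor having 105. Hars had 140 CPM in GTML 4, the next having 100. Ears2 had 29.0 CPM in GMYC 6, the next lowest having 75.4. Fars2 had 71.0 CPM and Hars2 had 89.2 CPM in GTML 3, the next having 49.7 and 72.8. Wars2 had 72.5 CPM in GTML 2, the next having 51.7. The causes were not tested.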

How the results depend on the processing

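The direction of the 11 called synthetases held in 286 of 286 values over all alternatives. These 11 genes were chosen by the main fit and the alternatives reuse the same tumors, so this is not separate evidence. Their count was 10 higher in GMYC and 1 in GTML tumors with no TMM, with RLE factors, with no filter, with limma-voom and with protein-coding genes alone, 10 and 2 with DESeq2, and 10 and 3 with CPM above 5 in at least 6 tumors. It fell from 11 to 3 with the covariate for Y-linked counts, to 0 on the higher side of the small nucleolar RNA split, where the cytosolic median was -0.03, and to 5 on the lower side, 4 of them shared with the 11. Leaving out 1 tumor gave 7 to 14 members (7 without GMYC 3, 8 without GMYC 5, 14 without GTML 2), a cytosolic median of -0.32 to -0.24 and a mitochondrial median of -0.13 to 0.00.

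No label ties tumors of the same number, so the numbers do not pair them: same-numbered tumors correlated at -0.212 to 0.24. A replicate block left 0 members called by edgeR and 251 genes in all (1.19%). It left 13 members at an unadjusted p under 0.05, with the share of all genes at that level not counted.

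Signs reversed for Aimp1 (0.08), Gatb (0.11) and Atf4 (0.05) on the higher side of the split, for Mtfmt (0.10) on the lower side, and for Aimp2 with the covariate for Y-linked counts (-0.11), with protein-coding genes alone (-0.01) and in 5 of 14 fits without 1 tumor (range -0.11 to 0.12). The causes were not tested. Depth was 4602294 to 7279811 counts.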
